A study of Sus scrofa with 12 samples.

Results

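The mRNA levels of PPARA, BDH1, GK and SMPDL3A were followed across all 12 libraries of a study of fat deposition in Dingyuan pigs, an indigenous Chinese breed. They are 4 of 31903 genes in the expression table. The 4 genes were taken from the list of genes that the study called different between muscles with high and low intramuscular fat. The members were thus chosen by measured values, namely their expression in HIMF against LIMF, and that difference is described below without a test. PPARA and SMPDL3A were found by the identifiers ENSSSCG00000000006 and ENSSSCG00000004233. BDH1 (ENSSSCG00000024109) and GK (ENSSSCG00000012202) were found by the identifiers in the study's gene list for muscle, and each gene had 1 row. All samples came from unmated sows labelled 300 days old, kept under the same feeding, with no treatment and no transgene. Back subcutaneous fat was sampled from pigs with low (LBF) or high (HBF) backfat thickness. The longissimus dorsi (LD), a muscle along the back, was sampled from pigs with low (LIMF) or high (HIMF) intramuscular fat. Each group held 3 RNA-seq libraries. The pigs came from 1 farm and were chosen for high or low live backfat at similar body weight. The muscle groups were then formed by measured intramuscular fat. Any trait that went with fat content differed along with it. In the study mean backfat was also higher in HIMF than in LIMF, without reaching significance.

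PPARA encodes a nuclear receptor that binds fatty acids and, as a pair with a retinoid X receptor, switches on genes of fatty acid uptake and oxidation. It is best known from liver, heart and oxidative muscle, where lipid is burnt. BDH1 is the mitochondrial enzyme that interconverts the ketone bodies 3-hydroxybutyrate and acetoacetate, the first step of ketone use in muscle. GK, glycerol kinase, adds phosphate to free glycerol so that it can return to triglyceride or glycolysis. SMPDL3A is a secreted phosphodiesterase of the acid sphingomyelinase family that cleaves nucleotides rather than sphingomyelin itself, and it is a target of the liver X receptors.

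In the RefSeq annotation of the pig genome Sscrofa11.1, PPARA is a protein-coding gene at chr5:3302755-3321091 with 1 annotated transcript. BDH1 lies at chr13:132602372-132647271 with 4 transcripts. GK lies on the X chromosome at chrX:26470422-26558892 with 10 transcripts, and SMPDL3A lies at chr1:39848641-39869184 with 3. The values below are for whole genes, so the isoforms behind them cannot be told apart. PPARA is the gene among the 4 for which the study designed RT-qPCR primers. The pair is shown because it gives the oligonucleotides by which the transcript can be measured apart from sequencing; both are 22 nt long, with a GC content of 40.9% and 50%, and no RT-qPCR value was used here.
PPARA forward: tttgtggctgctatcatttggt
PPARA reverse: cctcctgcattctctcaatgtg

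Values are FPKM, fragments per kilobase of transcript scaled to library size, as deposited, so levels of different genes can be compared per length. The sum of FPKM over all genes ranged from 420982 to 517796 per library, and between 16368 and 19274 genes had a value above 0. Read counts were not used here, so the counting error of a single value is unknown. The defining markers fitted the labelled tissues. The summed FPKM of 6 adipocyte markers was 7076 to 12594 in fat and 63.0 to 89.3 in muscle, and the myofibre markers MYL1 and TNNT3 were at least 2572 FPKM in every muscle library. LBF replicate 3 stood apart, with 43.4 FPKM of MYL1 and 35.0 of TNNT3, against at most 0.197 and 0.177 in the other fat libraries. ACTA1 was listed at 0 in all LIMF libraries and in HIMF replicate 1, and CKM in LIMF replicates 2 and 3, although muscle cells use these genes heavily, so neither was read as a level in muscle. The labels do not say whether fat and muscle came from the same pigs, although their library codes share numbers. The study's mean weight and backfat differ between LBF and LIMF and between HBF and HIMF. The fat and muscle groups were thus not wholly the same pigs. P-values measure the spread between these libraries, and those of muscle against fat treat the 12 as independent.

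PPARA was highest in LIMF muscle. The LIMF replicates 1 to 3 held 9.39, 6.85 and 9.40 FPKM (8.55 ± 1.47, mean ± SD, n = 3). In HIMF it was 2.59, 2.43 and 4.25 (3.09 ± 1.01, n = 3). Every LIMF library was above every HIMF library, and the LIMF mean was 2.77 times the HIMF mean. In fat, PPARA was 4.18, 2.23 and 4.40 in LBF (3.60 ± 1.20, n = 3) against 1.49, 3.06 and 2.88 in HBF (2.48 ± 0.859, n = 3). From high to low the order was LIMF, LBF, HIMF and HBF. LIMF did not overlap LBF, the next group, whereas LBF overlapped HIMF and HIMF overlapped HBF. The HIMF libraries lay within the range of the back fat libraries.

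BDH1 showed the same order of muscle groups with a wider spread. The 3 LIMF libraries held 10.8, 8.32 and 3.73 FPKM (7.60 ± 3.57, n = 3). The 3 HIMF libraries held 1.60, 1.24 and 3.59 (2.14 ± 1.26, n = 3). The groups did not overlap, but only narrowly, since LIMF replicate 3 at 3.73 was the nearest neighbour of HIMF replicate 3 at 3.59. The LIMF mean was 3.55 times the HIMF mean, or 5.36 times without HIMF replicate 3. In fat, BDH1 was 2.21, 1.78 and 1.83 in LBF (1.94 ± 0.236, n = 3) against 1.17, 3.11 and 2.24 in HBF (2.17 ± 0.972, n = 3). LIMF was above all other groups, and HBF, HIMF and LBF followed with overlapping neighbours.

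GK was a gene of fat rather than of muscle. It was 8.42, 8.74 and 17.6 FPKM in LBF (11.6 ± 5.21, n = 3) against 17.5, 9.13 and 11.5 in HBF (12.7 ± 4.32, n = 3). In LIMF it was 1.81, 3.62 and 1.93 (2.45 ± 1.01, n = 3), and in HIMF 0.427, 0.312 and 1.03 (0.590 ± 0.387, n = 3). All LIMF libraries were above all HIMF libraries, with a mean 4.15 times the HIMF mean, or 6.63 times without HIMF replicate 3, and all fat libraries were above both. The order was HBF, LBF, LIMF and HIMF, and HBF and LBF, the first neighbours, were the pair that overlapped.

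SMPDL3A was the most abundant of the 4 in fat and had the widest range. LBF libraries held 103, 49.5 and 38.8 FPKM (63.8 ± 34.6, n = 3), and HBF libraries 92.4, 79.3 and 63.3 (78.3 ± 14.6, n = 3). LIMF libraries held 13.6, 29.5 and 4.72 (15.9 ± 12.5, n = 3). HIMF libraries held 1.74, 1.12 and 1.54 (1.47 ± 0.319, n = 3), a narrow range below the lowest LIMF library. The LIMF mean was 10.9 times the HIMF mean and rested most on LIMF replicate 2, without which it was 6.24 times. The order of the groups was that of GK, and again the fat groups overlapped each other while each step below them was free of overlap.

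**Figure D1:**
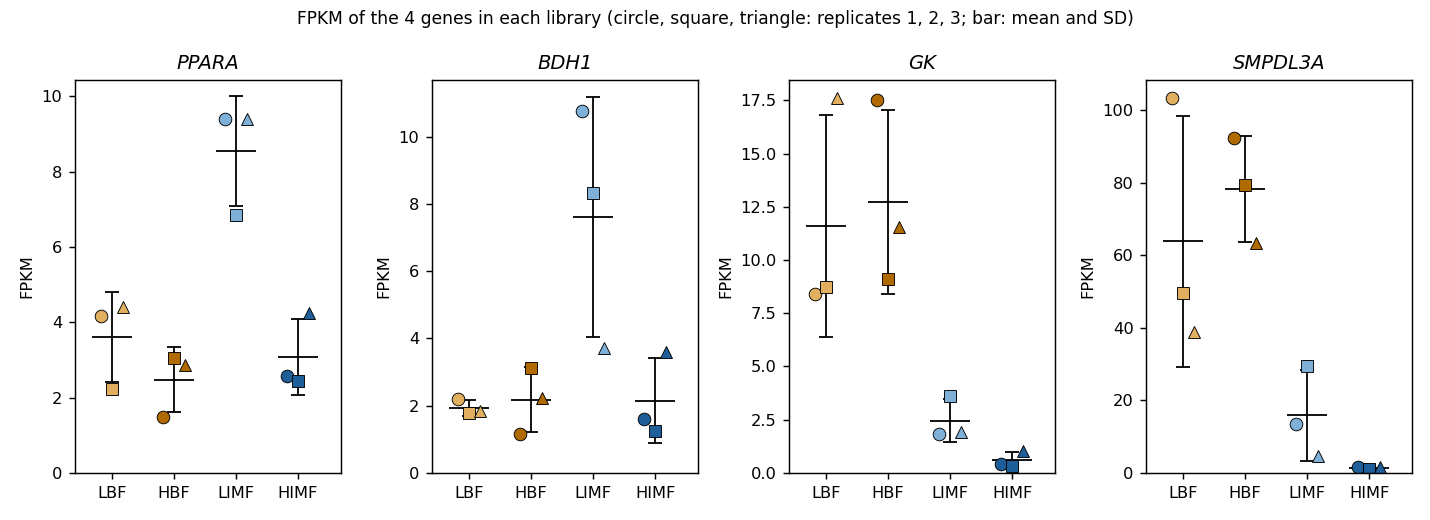
FPKM (linear axis from 0, a scale of its own in each panel) of PPARA, BDH1, GK and SMPDL3A in the 12 libraries by group, with replicates 1, 2 and 3 as circle, square and triangle and the mean and SD (n = 3) in black. All 3 LIMF libraries lie above all 3 HIMF libraries for each gene, by a narrow gap for BDH1 (3.73 against 3.59), and GK and SMPDL3A are higher in all 6 fat libraries than in muscle.

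The first comparison asked how muscle with high intramuscular fat differs from muscle with low. On the log2(FPKM + 0.1) scale, HIMF minus LIMF was -1.47 (SE 0.27) for PPARA, -1.80 (SE 0.49) for BDH1, -1.96 (SE 0.45) for GK and -3.02 (SE 0.59) for SMPDL3A, with 3 libraries a group. These values chose the genes and are given as a description. In muscle 14292 genes passed the filter of a mean above 0.05 FPKM, and among them SMPDL3A ranked 9 from the most negative difference, GK 60, BDH1 80 and PPARA 153. A gene was called in this and the following comparisons where the adjusted p was below 0.01 and the log2 difference at least 1 in either direction. By limma with Benjamini-Hochberg adjustment 0 genes, or 0%, were called between HIMF and LIMF, with 1004 genes (7.02%) at an unadjusted p under 0.05. The study's own DESeq2 test of counts, at the same limits, did call genes in this contrast and in back fat. A count of 0 from FPKM with 3 libraries a group therefore does not mean that no gene differs. All 3 HIMF libraries were below all 3 LIMF libraries in 4.74% of genes and above them in 7.93%. All 4 genes were in the first class, from which nothing is read, since the same contrast chose them. Among the 4, PPARA had the smallest difference and BDH1 the narrowest gap. In whole tissue, fewer cells of a type and less RNA per cell cannot be told apart.

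The levels moved beside other measures of the same libraries. GK and SMPDL3A were far higher in fat, yet lower in the muscle group with more intramuscular fat. The summed adipocyte markers were 63.0 to 85.3 in LIMF against 67.5 to 89.3 in HIMF, and the groups overlapped. Within that list 3 of 6 genes, ADIPOQ, PLIN1 and LEP, were higher in every HIMF library than in any LIMF library (7.93% of all genes), by 1.90 (SE 0.58), 1.98 (SE 0.50) and 1.71 (SE 0.31) on the log2 scale. LEP was low in muscle, at 0.031 to 0.099 FPKM in LIMF and 0.348 to 0.453 in HIMF, near the 0.1 added before taking logs. LIPE, hormone-sensitive lipase, had a difference of -0.88 (SE 0.40), and its groups overlapped. Most of the summed markers in muscle was FABP4 (mean 38.4 in LIMF, 42.9 in HIMF) and LIPE (33.1 and 17.4). In 5 of 6 adipocyte markers the difference was above 0, the opposite sign to GK and SMPDL3A, and the part of adipocyte content in the 4 differences was not tested. MYL1 and TNNT3, the myofibre markers with a value above 0 in every muscle library, overlapped between the groups (0.33, SE 0.43, and 0.28, SE 0.39).

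The libraries also varied in fibre type genes. The summed FPKM of 6 slow fibre genes was 9343, 4327 and 21289 in LIMF replicates 1 to 3, and 5346, 2801 and 7803 in HIMF. Fast fibre genes, of which 4 of 5 had a row, summed to 12873, 10540 and 9502 in LIMF and to 15906, 15651 and 11592 in HIMF. LIMF replicate 3 had the highest slow fibre sum and, among LIMF libraries, the lowest BDH1 and SMPDL3A. Its PPARA was the highest of LIMF (9.40, beside 9.39 in replicate 1), and its GK (1.93) lay between the other LIMF libraries. HIMF replicate 3 had the highest slow fibre sum of its group and the highest PPARA, BDH1 and GK of its group, while its SMPDL3A (1.54) lay between the other HIMF libraries. The part of fibre type in the 4 differences was not tested. Macrophage markers summed to 5.55 to 8.54 in LIMF against 2.57 to 8.98 in HIMF. Endothelial markers summed to 20.4 to 35.3 and 20.0 to 35.3, and fibroblast markers to 104 to 141 and 60.7 to 165. None of these 3 sums separated the groups.

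**Figure D2:**
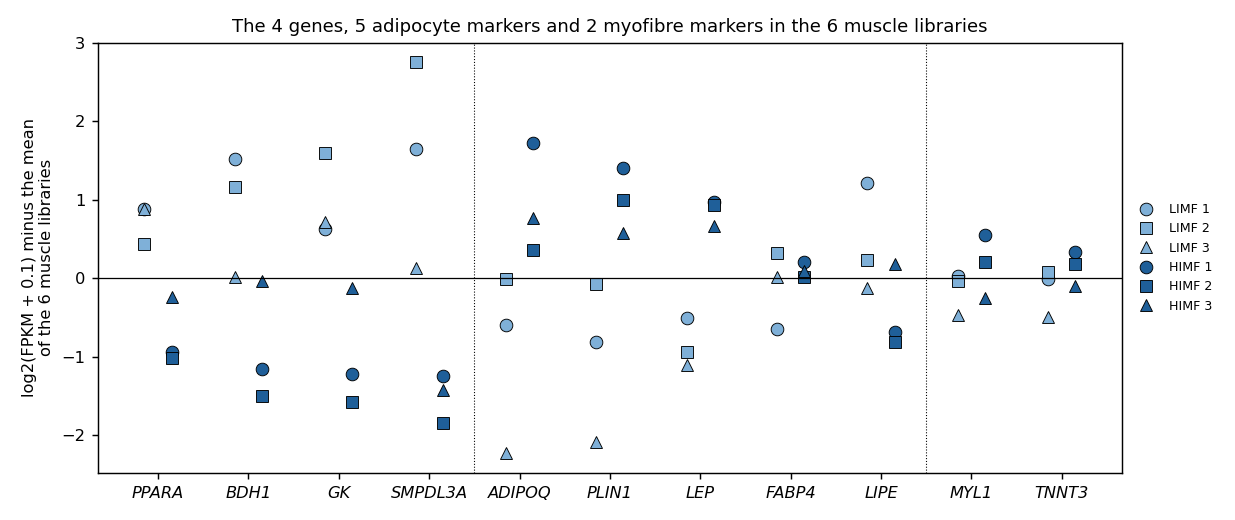
Level of each gene in the 6 muscle libraries as log2(FPKM + 0.1) minus its mean over them (vertical axis, log2 units), for the 4 genes (left), 5 adipocyte markers (middle) and 2 myofibre markers (right), with LIMF in light and HIMF in dark blue. The 4 genes lie higher in LIMF, ADIPOQ, PLIN1 and LEP lie higher in HIMF, and FABP4, LIPE, MYL1 and TNNT3 overlap.

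The second comparison asked the same of back fat. The study presented the 4 genes as particular to muscle with their fat results in view, so the lack of a call in fat is not independent of the choice and supports nothing. In HBF against LBF limma called 0 of the 4 genes, 0 of them with p under 0.05 before adjustment. The log2 difference was -0.53 for PPARA (SE 0.37, 95% interval -1.39 to 0.33, adjusted p = 0.557). It was 0.41 for SMPDL3A (SE 0.36, interval -0.43 to 1.25, adjusted p = 0.635). For GK it was 0.17 (SE 0.35, interval -0.65 to 0.99, adjusted p = 0.862), with a sign that turned when 1 library was left out. For BDH1 it was 0.06 (SE 0.35, interval -0.76 to 0.88, adjusted p = 0.958), with a sign that turned under other scalings. The libraries of HBF and LBF overlapped for each gene. Two-sided exact permutation tests gave p = 0.3, 0.5, 0.6 and 0.9 in the same order, where 3 libraries against 3 cannot go below 0.1. Across 16239 genes limma called 0%, with 2206 genes (13.6%) at an unadjusted p under 0.05. All 3 HBF libraries were below all LBF libraries in 6.46% of genes and above them in 13.9%. The intervals of PPARA and SMPDL3A reach beyond 1 on the log2 scale in 1 direction, so their levels are not shown to be alike in the fat groups. Without LBF replicate 3, the library with muscle RNA, the fat differences were -0.36 for PPARA, 0.03 for BDH1, 0.51 for GK and 0.11 for SMPDL3A. GK then showed no overlap between HBF and LBF, and limma still did not call it (adjusted p = 0.455). Each of the other genes also lost its overlap on 1 omission: SMPDL3A without LBF replicate 1 (0.82, adjusted p = 0.343), PPARA without LBF replicate 2 (-0.83, adjusted p = 0.411) and BDH1 without HBF replicate 1 (0.43, adjusted p = 0.638). With 1 library left out, groups separate more easily. The share of all genes without overlap was not computed for these settings, so nothing is read from the separations, that of GK included. The difference in muscle minus the difference in fat was -0.94 for PPARA, -1.86 for BDH1, -2.13 for GK and -3.42 for SMPDL3A. These were not tested, since their muscle term chose the genes.

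The third comparison set the 6 muscle libraries against the 6 fat libraries. GK and SMPDL3A were lower in muscle. On the log2 scale the difference of GK was -3.24 (SE 0.30, adjusted p = 1.06e-06) and that of SMPDL3A -3.94 (SE 0.38, adjusted p = 1.44e-06), and every muscle library was below every fat library. As a ratio of mean FPKM, fat held 7.99 times as much GK and 8.17 times as much SMPDL3A. The exact two-sided permutation p of each was 0.00216, the smallest that 6 libraries against 6 can give. PPARA and BDH1 had positive differences of 0.80 (SE 0.24, adjusted p = 0.00884) and 0.87 (SE 0.33, adjusted p = 0.0291), below the limit of 1 for a call. Their exact permutation p were 0.0996 and 0.136. The positive values came with LIMF: HIMF levels of both genes overlapped those of fat.

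The scale matters for this contrast. Of 15965 genes, 9.29% were called higher and 47.1% lower in muscle, and the median gene differed by -0.97. Relative to that median, PPARA stood at 1.76, BDH1 at 1.83, GK at -2.27 and SMPDL3A at -2.97. With median-of-ratios scaling the median of all genes was -0.12, and PPARA (1.81, adjusted p = 2.24e-05) and BDH1 (1.87, adjusted p = 0.000326) were called higher in muscle. GK and SMPDL3A were called lower under every setting tried, although muscle and fat libraries overlapped for SMPDL3A with median-of-ratios scaling. A lower level in muscle is not particular to GK and SMPDL3A, given the 47.1% of genes called so.

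**Figure D3:**
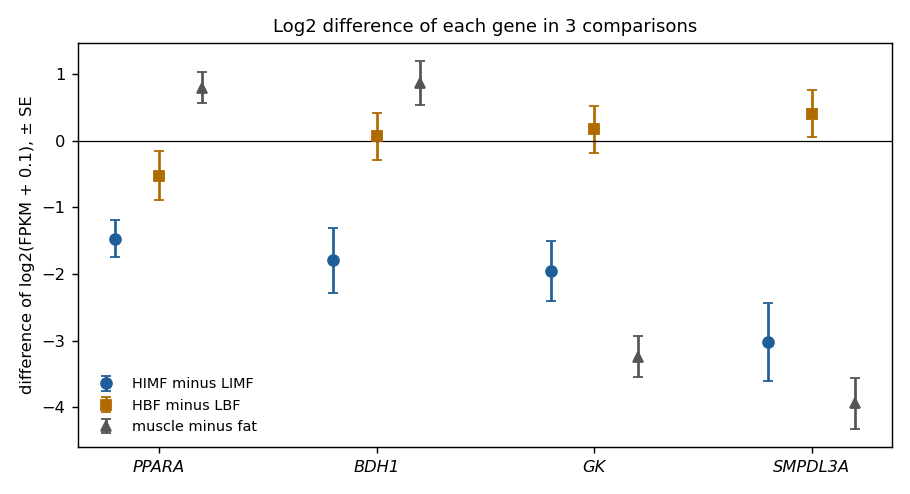
Difference of log2(FPKM + 0.1) with its SE (vertical axis, log2 units) for each gene in HIMF minus LIMF (circles, the contrast that chose the genes), HBF minus LBF (squares) and muscle minus fat (triangles). The muscle differences run from -1.47 to -3.02, the fat differences from -0.53 to 0.41 (the sign of BDH1 and GK turned under other settings), and the tissue difference is above 0 for PPARA and BDH1 and below 0 for GK and SMPDL3A.

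PPARA was set beside its receptor family and partners, from a list of 15 other genes. PPARG, the receptor that drives fat cell formation, was 106 to 121 FPKM in LBF against 64.5 to 127 in HBF, but 0.279 to 0.787 in LIMF against 0.500 to 1.15 in HIMF. The ratio of PPARA to PPARG was 0.0186 to 0.0413 in fat, 8.71 to 33.7 in LIMF against 2.25 to 8.49 in HIMF. PPARA was therefore the more abundant of the pair in every muscle library and the less abundant in every fat library. PPARD, the widely expressed member, was 20.3, 7.35 and 5.59 in LIMF against 4.99, 5.68 and 5.40 in HIMF, and its ratio to PPARA overlapped between the groups. In fat, PPARD was higher in each HBF library (33.4, 37.1 and 17.3) than in any LBF library (10.1, 11.6 and 11.3). Its log2 difference of 1.33 (SE 0.28) did not pass the adjusted limma test (adjusted p = 0.22), whereas the study's count test called PPARD higher in HBF. PPARA did not show that separation, and the ratio of PPARA to PPARD was 0.191 to 0.413 in LBF against 0.0447 to 0.166 in HBF.

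The retinoid X receptors, with which PPARA pairs, did not follow it in muscle. RXRA had a difference of -0.07 (SE 0.23) between HIMF and LIMF, RXRB of -0.05 (SE 0.17) and RXRG of 0.98 (SE 0.45), each with overlapping groups. PPARGC1A, a coactivator of PPARA in oxidative tissue, was 32.0, 7.06 and 6.61 FPKM in LIMF against 2.98, 5.42 and 5.69 in HIMF. Its groups did not overlap, with a difference of -1.32 (SE 0.59) that did not pass the test (adjusted p = 0.71), and LIMF replicate 1 was far above the other libraries. The other partner that did not overlap was the coactivator NCOA2 (-0.57, SE 0.23), named after its value was seen. In all, limma called 0 of 15 partners between HIMF and LIMF (1 at an unadjusted p under 0.05), 2 were lower and 0 higher without overlap (4.74% and 7.93% of all genes), and the median was -0.20 against 0.04 over all genes tested. Between HBF and LBF 0 of 15 were called (2 at an unadjusted p under 0.05), 3 were higher and 0 lower without overlap (13.9% and 6.46% of all genes), and the median was 0.05 against 0.09 over all genes. Besides PPARD the higher ones were RXRB (0.25, SE 0.14) and the coactivator PPARGC1B (0.76, SE 0.28), the latter named after its value was seen. Between the tissues 2 of 15 were called higher and 3 lower in muscle, beside 9.29% and 47.1% of all genes.

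Genes of fatty acid oxidation, many of them PPARA targets, mostly overlapped between HIMF and LIMF. Of 28 genes limma called 0 (3 at an unadjusted p under 0.05), 2 were lower and 1 higher without overlap (4.74% and 7.93% of all genes), and the median was -0.13. ACSL1, which activates long-chain fatty acids, was 258, 275 and 202 FPKM in LIMF against 74.5, 84.4 and 188 in HIMF (-1.20, SE 0.37, adjusted p = 0.59). ACSL4, an isoform that prefers arachidonate, had a difference of 0.66 (SE 0.21, adjusted p = 0.60) and was the gene higher without overlap. FABP3, the fatty acid carrier of muscle cytosol, was named after its values were seen: 329, 365 and 758 in LIMF against 100, 42.4 and 295 in HIMF (-2.06, SE 0.67, adjusted p = 0.60). The carnitine shuttle overlapped, with -0.45 (SE 0.38) for CPT1B, 0.29 (SE 0.38) for CPT1A, -0.97 (SE 0.56) for CPT2 and -0.09 (SE 0.31) for SLC25A20. CPT1B was 121 in LIMF replicate 3, where PPARA was 9.40, and 55.6 in LIMF replicate 1, where PPARA was 9.39. Between the fat groups 0 of 28 were called, and 7 had an unadjusted p under 0.05 (13.6% of all genes). Without overlap, 6 were lower in HBF and 1 higher (6.46% and 13.9% of all genes), and the median was -0.16. Between the tissues 8 of 28 were called higher and 5 lower in muscle, beside 9.29% and 47.1% of all genes.

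BDH1 stood with a list of 8 other ketone body genes. Between HIMF and LIMF limma called 0 of the 7 tested in muscle (0 at an unadjusted p under 0.05), the groups overlapped for each (4.74% of all genes were lower and 7.93% higher without overlap, so under 1 of 7 in each direction, and nothing is read from it), and their differences ranged from -0.49 to 0.23 with a median of -0.01. OXCT1, which carries out the next step of ketone use by making acetoacetyl-CoA, was 52.9, 38.3 and 112 in LIMF against 53.6, 44.7 and 58.3 in HIMF. Its difference was -0.24 (SE 0.38). The ratio of BDH1 to OXCT1 was 0.0331 to 0.217 in LIMF against 0.0277 to 0.0615 in HIMF, and it overlapped because OXCT1 was highest in LIMF replicate 3, where BDH1 was lowest of its group. ACAT1, the mitochondrial thiolase, was 81.2, 69.9 and 357 in LIMF against 130, 112 and 137 in HIMF (-0.01, SE 0.57). BDH2, a cytosolic dehydrogenase, had a difference of -0.14 (SE 0.21). AACS, which returns acetoacetate to lipid synthesis in the cytosol, had -0.49 (SE 0.42), ACAT2 0.13 (SE 0.32) and HMGCS1 0.16 (SE 0.21).

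In back fat limma called 0 of the 8 genes of the ketone list, and 4 had an unadjusted p under 0.05 (13.6% of all genes). The median of the 8 was -0.46. For 5 of them all HBF libraries lay below all LBF libraries, against 6.46% of all genes. AACS was 41.7, 33.1 and 33.2 in LBF against 5.35, 9.75 and 8.52 in HBF, a difference of -2.21 (SE 0.24, adjusted p = 0.13). ACAT1 was 102, 134 and 107 in LBF against 52.3, 65.1 and 65.2 in HBF (-0.90, SE 0.16, adjusted p = 0.20). ACAT2 (-0.48, SE 0.16) and BDH2 (-0.35, SE 0.17) were also among the 5. The study's count test called AACS and ACAT1 lower in HBF. BDH1 overlapped there, with HBF replicate 2 at 3.11 the highest and HBF replicate 1 at 1.17 the lowest fat library. Between the tissues 4 of 7 ketone genes were called lower and 0 higher in muscle, beside 47.1% and 9.29% of all genes, and BDH1 had a positive difference.

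GK was set beside 16 other genes of glycerol and glycerolipid metabolism. GPD1, which makes glycerol 3-phosphate from the glycolytic intermediate dihydroxyacetone phosphate and so supplies the product of GK by another route, was higher in HIMF. It stood at 316, 177 and 491 FPKM in LIMF against 535, 720 and 603 in HIMF, a difference of 1.03 (SE 0.39, adjusted p = 0.65) without overlap. The ratio of GK to GPD1 was 0.00571, 0.0204 and 0.00394 in LIMF against 0.000798, 0.000434 and 0.00171 in HIMF, and 0.0300 to 0.0741 in fat. AQP3, a channel that passes water and glycerol, was 1.51, 2.47 and 0.788 in LIMF against 5.18, 5.22 and 5.17 in HIMF (1.78, SE 0.37, adjusted p = 0.47). It was thus higher in each HIMF library while GK was lower.

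The other glycerol genes gave a mixed picture in muscle. GPD2, the mitochondrial partner of GPD1, had a difference of 0.52 (SE 0.34), GPD1L of -0.26 (SE 0.35) and GPAM, which esterifies glycerol 3-phosphate, of -0.90 (SE 0.57), all with overlap. PCK1, the enzyme of glyceroneogenesis, was 36.0 in LIMF replicate 2 and at most 0.247 in the other muscle libraries, and LIMF replicate 2 also had the highest GK and SMPDL3A of the muscle libraries. Of the 16 genes limma called 0 between HIMF and LIMF, and 5 had an unadjusted p under 0.05 (7.02% of all genes). Without overlap, 2 (GPD1 and AQP3) were higher and 2 lower (7.93% and 4.74% of all genes), and the median was -0.25. The 2 lower ones, chosen after their values were seen, were GPAT4, an acyltransferase of the same step as GPAM (-1.0, SE 0.25), and LPL, the lipase that frees fatty acids from lipoproteins (-1.30, SE 0.42). In fat 0 of 16 were called, and 4 had an unadjusted p under 0.05 (13.6% of all genes). Without overlap, 4 were lower and 1 higher in HBF (6.46% and 13.9% of all genes). GK had a difference of 0.17 with overlapping groups. Between the tissues 10 of 16 were called lower and 2 higher in muscle, beside 47.1% and 9.29% of all genes.

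SMPDL3A was compared with its nearest relative and with 22 genes of sphingomyelin and ceramide metabolism in all. SMPDL3B, a membrane-anchored relative of the same family, was 8.66, 15.5 and 9.33 in LIMF against 16.1, 18.9 and 21.9 in HIMF, higher without overlap (0.80, SE 0.26, adjusted p = 0.61). The ratio of SMPDL3A to SMPDL3B was 0.506 to 1.91 in LIMF, 0.0593 to 0.108 in HIMF and 3.53 to 13.9 in fat. SMPD1, acid sphingomyelinase itself, was 12.9, 19.9 and 9.64 in LIMF against 6.47, 6.74 and 8.95 in HIMF, lower without overlap (-0.88, SE 0.29, adjusted p = 0.61). The ratio of SMPDL3A to SMPD1 was 0.490 to 1.48 in LIMF against 0.166 to 0.270 in HIMF without overlap.

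The neutral sphingomyelinases overlapped between the muscle groups, with -0.24 (SE 0.41) for SMPD2, -0.08 (SE 0.32) for SMPD3 and -0.11 (SE 0.23) for SMPD4. The sphingomyelin synthase SGMS1 was 34.7 in LIMF replicate 2, against 4.27 to 9.95 in the other muscle libraries (-0.85, SE 0.66). Of 22 genes limma called 0 between HIMF and LIMF, and 4 had an unadjusted p under 0.05 (7.02% of all genes). Without overlap, 3 were lower and 1 higher (4.74% and 7.93% of all genes), and the median was -0.05. Besides SMPD1 the lower ones, chosen after their values were seen, were UGCG, which makes glucosylceramide (-0.98, SE 0.29), and SPHK1, which phosphorylates sphingosine (-0.94, SE 0.38). The liver X receptors that act on SMPDL3A overlapped, with NR1H3 at 0.12 (SE 0.25) and NR1H2 at 0.40 (SE 0.24), also named after their values were seen. In fat 0 of 22 were called (2 at an unadjusted p under 0.05), with 4 higher and 2 lower in HBF without overlap (13.9% and 6.46% of all genes). Between the tissues 15 of 22 were called lower and 0 higher in muscle, beside 47.1% and 9.29% of all genes.

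**Figure D4:**
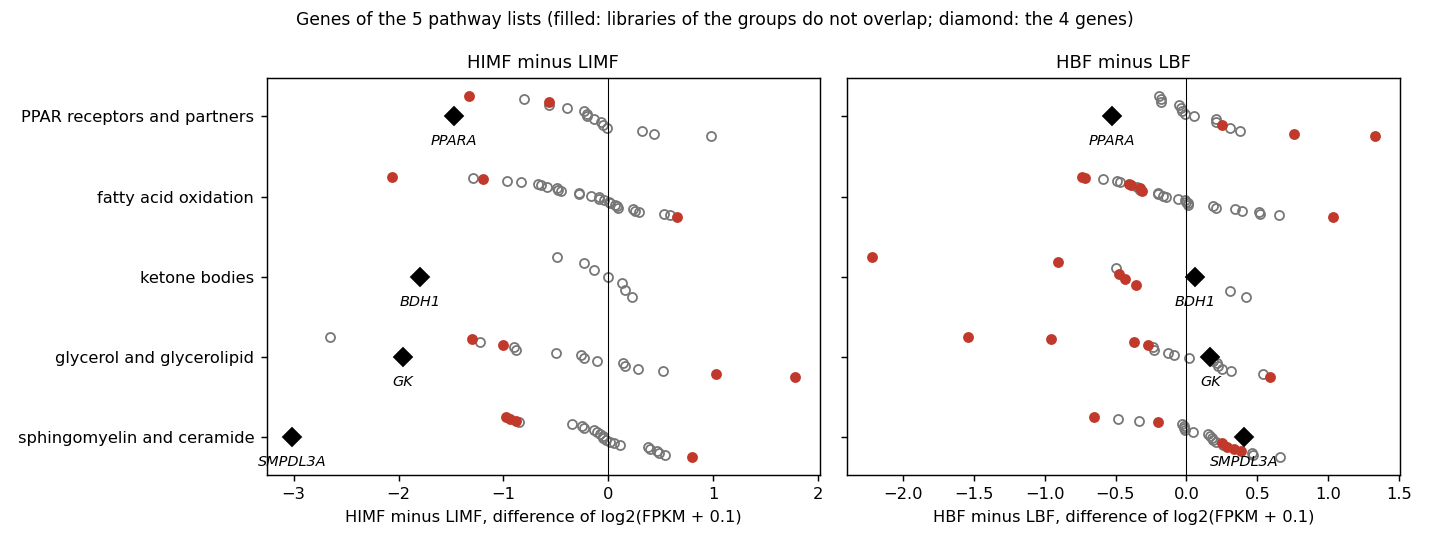
Difference of log2(FPKM + 0.1) (horizontal axis, log2 units) of each tested gene of the 5 lists, by list, for HIMF minus LIMF (left) and HBF minus LBF (right), with filled points where the 3 libraries of each group do not overlap and diamonds for PPARA, BDH1, GK and SMPDL3A. The diamonds in the left panel lie low because that contrast chose the 4 genes, and 5 of 8 ketone genes are filled below 0 in fat, where BDH1 is at 0.06 (its sign turned under other scalings).

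Genes with the most similar pattern were taken as those with the highest Pearson r of log2(FPKM + 0.1), as a description without a test, since libraries of a group share their level. Only genes with a symbol in the reference table are named. Over 12 libraries and 11078 genes, the named genes most like PPARA were ABHD18 (r = 0.885), MOGAT1 (0.822), an enzyme of triglyceride synthesis, and DELE1 (0.815), which ranked 4 after a gene without a symbol. BDH1 was most like ABHD2 (0.913), UBAP1 (0.90) and ROCK2 (0.884). GK was most like HOOK2 (0.983), PFKL (0.974) and ACTR1B (0.973), and SMPDL3A most like CFAP300 (0.973), EEIG1 (0.962) and P4HB (0.960). GK and SMPDL3A shared their difference between the tissues with many genes: 929 and 263 genes had an r above 0.9 with them, against 0 for PPARA and 2 for BDH1.

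Over the 6 muscle libraries and 9221 genes, PPARA was most like PLIN2 (r = 0.984), a coat protein of lipid droplets, and then TTI2 (0.973). Mean PLIN2 was 53.3 FPKM in LIMF and 25.1 in HIMF. BDH1 was most like AEBP1 (0.988), RUSC2 (0.988) and EMSY (0.985). GK was most like XPNPEP3 (0.995), MTARC1 (0.994) and TNKS (0.989), and SMPDL3A most like SELENOS (0.996), PCYT2 (0.993) and JMY (0.989). With 6 points, between 56 genes (PPARA) and 174 genes (SMPDL3A) of the 9221 had an r above 0.9. A high r over muscle alone was thus not particular to the genes named.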

How the data were processed

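The authors aligned reads to the pig genome with HISAT2 and computed FPKM per gene with Cufflinks 2.2.1; their own tests of counts with DESeq2 1.25.9 were not used. The FPKM table as deposited by the authors was the only measurement used here, for 12 libraries in 4 groups of 3 taken from the labels. FPKM divides by the size of each library, so a few very high genes lower all others; a gene listed at 0 can be a failed estimate. The 7 identifiers on 2 rows were summed. Symbols came from a reference table for 15028 identifiers, and GK from the study's list. Of 123 list genes, 114 matched (among those that did not match were CD36, AQP7 and MYH7).

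The test was limma's moderated linear model (limma 3.58.1 under R 4.3.3, eBayes with a trend). Its input was log2 of FPKM plus 0.1, after removing genes whose mean was 0.05 FPKM or less. It used the 6 libraries of a tissue, or all 12 for muscle minus fat. Genes were called at a Benjamini-Hochberg adjusted p under 0.01 and an absolute log2 difference of at least 1. The fold differences so obtained understate the change of low genes. Exact permutation tests used scipy 1.17.1. Count tests were not possible on FPKM. The limma script was also run on simulated data with known shifts. That outcome is not reported here, and nothing about the counts of genes called is drawn from it.

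The genes and the lists were chosen with earlier results of these data known, and the fibre lists and pair ratios after their values were seen. Genes named are the 4, all ketone genes, the first 6 of each other list, and per gene the 3 most alike with a symbol and a mean FPKM above 1; exceptions are marked in the text, and a few genes under this rule are not reported here. Alternatives were a pseudocount of 1 or 0.01, no filter or a stricter one of 1 FPKM, quantile normalization, median-of-ratios scaling, a replicate block, eBayes without trend, all 12 libraries in 1 fit, and leaving out each library.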

Additional observations from a re-analysis of the deposited data

Results flagged for a closer look

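UGCG, the enzyme that makes glucosylceramide and a gene of the same lipid class as the list around SMPDL3A, differed in opposite directions in the tissues. It was 0.879, 1.04 and 0.670 FPKM in LIMF against 0.465, 0.348 and 0.344 in HIMF, where every HIMF library was lower. In fat it was 2.24, 2.92 and 2.61 in LBF against 3.01, 4.16 and 3.11 in HBF, where every HBF library was higher. The muscle difference minus the fat difference was -1.36 on the log2 scale. The directions of all libraries drew attention to it; a limma contrast of the difference itself over the 12 libraries did not pass (adjusted p = 0.275 over all genes), nor did either single difference. It was the 1 gene with such opposite directions among 92 genes of the 5 pathway lists tested in both tissues (1.09%), beside 162 of all 13767 genes (1.18%). Groups of 3 libraries were not screened for outlying values.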

How the results depend on the processing

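Between HIMF and LIMF, the contrast that chose the 4 genes, the groups were also free of overlap with median-of-ratios scaling and quantile normalization; the other settings cannot change the order of the libraries. GK fell from -1.96 to -1.11 with a pseudocount of 1. Leaving out 1 library gave -1.72 to -1.32 for PPARA, -2.24 to -1.48 for BDH1, -2.38 to -1.65 for GK and -3.70 to -2.40 for SMPDL3A. Genes called went from 0 to 1 with all 12 libraries in 1 fit and were 0 to 5 with 1 library left out, with 5 without LIMF replicate 1. Between HBF and LBF no member was called under any setting. The sign of BDH1 reversed with median-of-ratios scaling (-0.028) and quantile normalization (-0.054), and its range with 1 library left out was -0.24 (without HBF replicate 2) to 0.43, including -0.01 without HBF replicate 3. GK ranged from -0.086 (without HBF replicate 1) to 0.51 and was -0.02 without LBF replicate 1. PPARA ranged from -0.83 to -0.21 and SMPDL3A from 0.11 to 0.82, and genes called were 0 to 2. Without LBF replicate 3, the library with muscle RNA, no sign turned. For muscle minus fat, genes called fell from 9009 to 5864 with a pseudocount of 1. PPARA became called with median-of-ratios scaling (1.81) and quantile normalization (1.87), as did BDH1 (1.87 and 2.04), and BDH1 also without LIMF replicate 3 (1.09, adjusted p = 0.00631), the top of its range of 0.65 to 1.09. GK and SMPDL3A stayed called. Same-numbered libraries within a tissue did not deviate together: their r were -0.07, 0.05 and -0.05 in muscle and 0.07, 0.13 and 0.01 in fat. Between the tissues r was 0.13, 0.24 and 0.06 for LBF with LIMF, where each library correlated best with its own number. It was -0.05, -0.05 and -0.04 for HBF with HIMF, where none did. The study's group means of weight and backfat differ between LBF and LIMF and between HBF and HIMF. Same-numbered libraries therefore cannot all be pairs from 1 pig, and whether some are is not known. A replicate block by number within the low and within the high groups, chosen after seeing the data, changed no call of the 4 genes for muscle minus fat (8990 genes called; adjusted p = 0.00393 for PPARA, 0.0242 for BDH1, 1.75e-05 for GK and 6.25e-06 for SMPDL3A). A replicate block cannot change a difference between groups of equal size (-1.47 for PPARA, -1.80 for BDH1, -1.96 for GK and -3.02 for SMPDL3A), and with it 0 genes were called between HIMF and LIMF. The causes of these shifts were not tested. Without read counts, no limit of detection can be given for low values such as GK in HIMF.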
